A study of Homo sapiens with 4 samples.

Results

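Of 2008 p53 peaks listed for HCT116 spheroid cells labelled p53-R273H, 220 overlapped both a peak of the wildtype control and the span of a RefSeq gene. These shared peaks inside genes were chosen by position alone: at least 1 bp in common with a wildtype peak, and at least 1 bp in common with a gene on chromosomes 1 to 22, X or Y, with the stretch from 8 to 9 Mb of chromosome 21 left out. Their partners were 222 of the 2059 wildtype peaks. The choice used the peak calls of both lists, so the sharing itself is no result. In the whole R273H list 440 peaks, 21.9%, overlapped a wildtype peak. Besides the 220, 208 of these lay between genes and 12 in the stretch left out.

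The peaks come from chromatin immunoprecipitation with sequencing (ChIP-seq), in which DNA held by a protein is recovered with an antibody and sequenced. HCT116 is an established human colorectal carcinoma line. Both groups, labelled p53-R273H and wildtype control, were grown as spheroids in serum-free DMEM/F12 medium with B27, epidermal growth factor and basic fibroblast growth factor, and both were precipitated with the p53 antibody DO1. There were 4 samples, with 1 ChIP library and 1 input library per genotype, and nothing that differs between the genotypes could be checked against a replicate. How R273H was brought into the cells is not in the labels, and no expression values were analysed here, so the identity of the cells was not checked against markers. The read depth behind the peaks is unknown. The intervals below are exact (Clopper-Pearson) 95% binomial intervals for shares; they cover counting error only, and neighbouring peaks are not independent.

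p53 is a transcription factor that binds DNA as a tetramer. Its response element is a pair of half-sites, each with the core CATG or a close relative of it, and it is found both near transcription starts and deep inside genes. Wildtype p53 is known for switching on genes of cell-cycle arrest, apoptosis and DNA repair after damage. R273H replaces an arginine that contacts DNA, and the mutant is frequent in colorectal cancer. The epitope of DO1 is near the N-terminus, a region common to both forms of the protein.

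Sequence was at hand only for windows around annotated gene starts, from RefSeq on GRCh38.p14, each reaching from 250 bases before to 50 bases after the start. Among the shared peaks inside genes, 17 touched such a window, and together they touched 20 windows. A pair of p53 half-sites was found in 5 of the 20 windows, 25% (8.66 to 49.1%), against 313 of the 34943 windows scanned, 0.896%. The windows belong to 27305 genes, and starts of other genes were not scanned. In this scan each half-site of 10 bases had to hold the core exactly and could miss 1 of its 6 outer bases, with 0 to 13 bases between the half-sites, on either strand. A pair without any mismatch was found in 4 of the 20 windows, 20.0% (5.73 to 43.7%), and in only 10 of the 34943. A match is a description of the letters and does not show which base p53 touched.

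The 4 windows with a pair free of mismatches are shown first because they hold the closest fit to the p53 element among the shared peaks, and the fifth because it has 1 mismatch. Capitals mark the half-sites, which follow each other without a spacer in all 5, and each sequence is written on the strand of its gene, 5′ to 3′. They lie at chr7:121511275-121511334 on the minus strand (LOC124901737), chr1:9182124-9182183 on the plus strand (LNCTAM34A), chr6:48111178-48111237 on the minus strand (PTCHD4), chr2:88538470-88538522 on the plus strand (EIF2AK3-AS1) and chr6:63573693-63573752 on the minus strand (LOC124901228), all in GRCh38.p14.
LOC124901737: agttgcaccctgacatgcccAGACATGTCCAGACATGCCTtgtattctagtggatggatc
LNCTAM34A: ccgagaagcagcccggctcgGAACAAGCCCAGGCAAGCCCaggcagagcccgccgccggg
PTCHD4: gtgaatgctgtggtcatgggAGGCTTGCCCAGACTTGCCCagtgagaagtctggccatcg
EIF2AK3-AS1: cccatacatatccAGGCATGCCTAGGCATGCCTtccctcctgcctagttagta
LOC124901228: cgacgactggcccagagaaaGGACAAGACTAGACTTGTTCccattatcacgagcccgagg

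The first 4 pairs lay close to the middle of their R273H peak, within 33 bp of its midpoint in LNCTAM34A and PTCHD4, 15 bp in LOC124901737 and 13 bp in EIF2AK3-AS1. The pair of LOC124901228, 109.5 bp from the R273H midpoint, straddled the edge of the R273H peak and lay wholly inside the wildtype partner. LNCTAM34A is a noncoding RNA that starts inside the span of MIR34AHG, on the opposite strand. MIR34AHG is the host transcript of the p53-induced microRNA miR-34a. Their shared peak scored 1160.05 in R273H and 3100 in wildtype. PTCHD4, a Patched-related membrane protein, had scores of 264.16 and 832.87. The peak at LOC124901737, an uncharacterised lncRNA gene, scored 1449.27 and 3100, and its window held 3 overlapping or neighbouring pairs. EIF2AK3-AS1, antisense to the gene of the stress kinase PERK, scored 258.84 and 321.88.

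Scores are the authors' own, given separately for each list on a scale that no label or header names. They describe and rank peaks within a list, and a higher number in 1 list than in the other is not a difference in binding. Of the 10 windows with a mismatch-free pair among the 34943 scanned, 4 lay under a shared peak, and no other R273H peak touched the remaining 6. Wildtype peaks touched 3 of those 6: DDB2, a DNA damage sensor, with a wildtype score of 253.41, the lncRNA gene PURPL with 238.72, and MCC, named for mutation in colorectal cancer, with 50.27. The windows of LOC105376065, DYNC2H1 and LOC124903192 had no peak in either list.

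A second sign of the element is the paired core CATGNNNNNNCATG, searched on both strands. It leaves the other bases free but needs both cores to read CATG at a fixed spacing. It was found in 4 of the 20 windows under shared peaks, 20.0%, and in 131 of all windows, 0.375%. Some of these matches are parts of the pairs printed above, in LOC124901737 and EIF2AK3-AS1. The other 2 windows are those of GATC and TRIAP1, which start from opposite strands of the same stretch. They hold 1 match between them, at chr12:120446340-120446353. It is shown within chr12:120446332-120446361 on the plus strand, with the CATG cores in capitals.
GATC: tcgcgcttCATGtccgtgCATGcctccccc

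TRIAP1 encodes a p53-regulated inhibitor of apoptosis, and GATC a subunit of the mitochondrial amidotransferase that charges glutaminyl tRNA. The core lay 37.5 bp after the TRIAP1 start and 97.5 bp before the GATC start, 35.5 bp from the R273H midpoint and 62.5 bp from that of the partner. Other start motifs did not stand out in this way. The CCAAT box (CCAAT) was in 4 of the 20 windows, 20.0%, against 34.6% of all, and the TATA box (TATAAA) in 1, 5.00%, against 11.6%. The GC box (GGGCGG) was in 11, 55.0% (31.5 to 76.9%), against 44.9%, and the AP-1 site (TGANTCA) in 2, 10.0% (1.23 to 31.7%), against 7.72%. All were searched on both strands.

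Few windows lay under peaks that were not shared. A half-site pair was in 1 of 8 windows under R273H peaks without a partner. It was in 4 of 42 under wildtype peaks without one, 9.52% (2.66 to 22.6%). Both sets take all such peaks, whether or not they overlap a gene span. The intervals of these shares overlap that of the shared peaks. The 15 other windows under shared peaks had no pair at these settings, among them those of RPS19, AEN, RPS27L and PRDM1. This says only that the letters are not in those 300 bases.

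Within the R273H list the shared peaks inside genes had a median score of 151, with quartiles of 86.1 and 312 and a range from 50.66 to 3204.32. Of the 220, 146 scored at least 100, 66.4% (59.7 to 72.6%), where 19.5% of all R273H peaks did. R273H peaks inside genes without a partner had a median of 59.3, and 55 of 460, 11.96% (9.14 to 15.3%), reached 100. Shared peaks between genes stood nearer, with a median of 116 and 119 of 208, 57.2% (50.2 to 64.0%), at 100 or above. Their interval overlaps that of the shared peaks inside genes.

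The wildtype list gave the same order. The 222 partners had a median score of 398, and 194 of them, 87.4% (82.3 to 91.5%), reached 100, where 27.5% of all wildtype peaks did. Counted once for each of the 220 peaks, with the best partner where there were 2, the median wildtype score was 463. The shared wildtype peaks between genes had a median of 367, and the wildtype peaks inside genes without a partner 61.8. The rule needs a call in both lists, so the height of the shared peaks describes what the overlap selected.

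**Figure D1:**
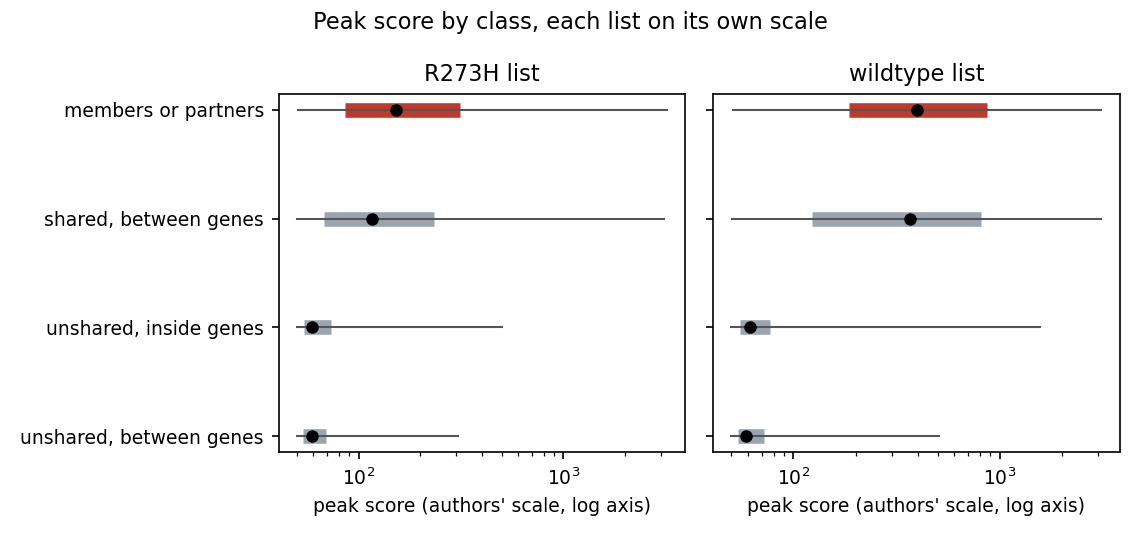
Peak score on the authors' scale (log axis) by class, with the R273H list on the left and the wildtype list on the right. Points are medians, thick bars quartiles and thin lines the full range; the shared peaks inside genes or their partners have medians of 151 and 398, and peaks without a partner lie near 60 in both lists.

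How often a peak lay in a gene was compared between shared and unshared peaks of each list. Outside the stretch left out, 220 of 428 shared R273H peaks lay in a gene, 51.4% (46.6 to 56.2%), against 460 of 1566 unshared ones, 29.4% (27.1 to 31.7%), and these intervals do not overlap. In the wildtype list 221 of 425 shared peaks did so, 52.0% (47.1 to 56.8%), close to 809 of 1618 unshared ones, 50.0% (47.5 to 52.5%). R273H peaks without a partner were thus the class that lay in genes least often.

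The 2 scores of a shared site rose together. Over the 220 peaks the Spearman correlation of the R273H score with that of the best overlapping partner was 0.80, and Pearson's r of the log2 scores was 0.81. The points share the same method in each list and 4 partners stand for 2 peaks each, so this is a description. Scores also followed width, with Spearman correlations of 0.82 for R273H and 0.81 for wildtype peaks. Of the 20 highest R273H scores, 16 belonged to peaks whose partner was also among the 20 highest partners. At the top 7 partners tied at 3100, so their order is not resolved.

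**Figure D2:**
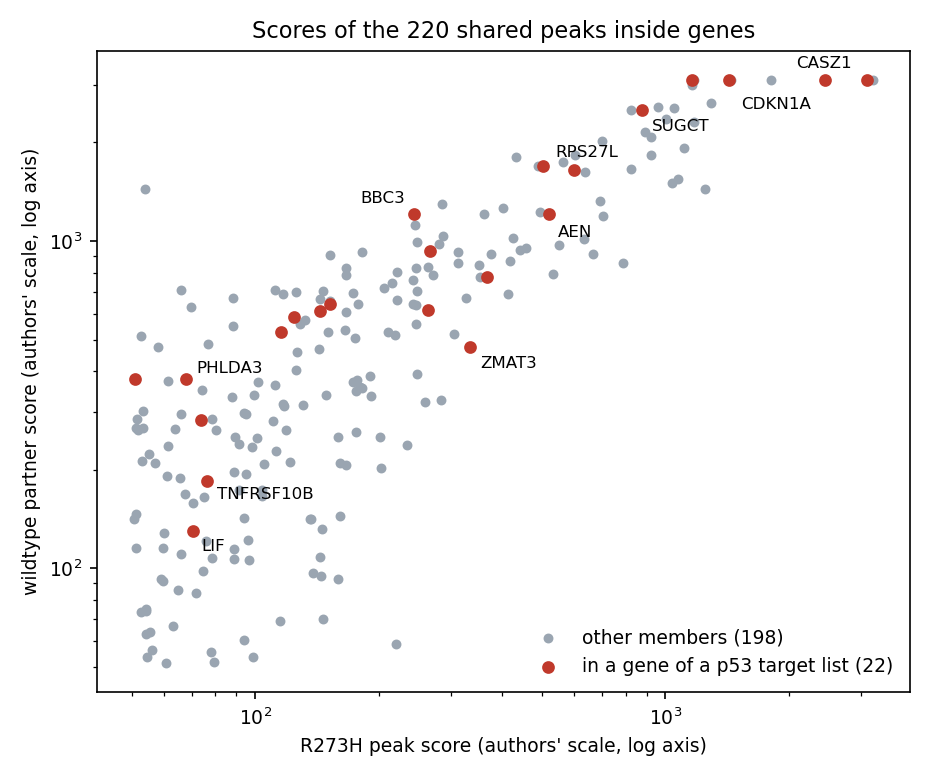
R273H score of each of the 220 shared peaks inside genes against the score of its wildtype partner, both on the authors' scales (log axes). Red points are the 22 peaks in genes of the p53 target lists and grey points the other 198; the points run from low left to high right, with Spearman's rho of 0.80.

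Since the rule asks for overlap, the distances within a pair are bounded by it and are given as a description. The midpoints of the 2 peaks were a median of 31 bp apart, with quartiles of 13.5 and 59.2 bp, and 149 pairs, 67.7%, were within 50 bp. The signed offset had a median of 3.5 bp. The overlap covered a median of 75.4% of the partner, and at least 16.7%. Only 3 pairs were more than 200 bp apart. R273H peaks had a median width of 362 bp and partners of 501.5 bp. The partner was the wider in 177 of 220 pairs, and 133 R273H peaks lay wholly inside their partner, while 21 partners lay wholly inside the R273H peak.

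**Figure D3:**
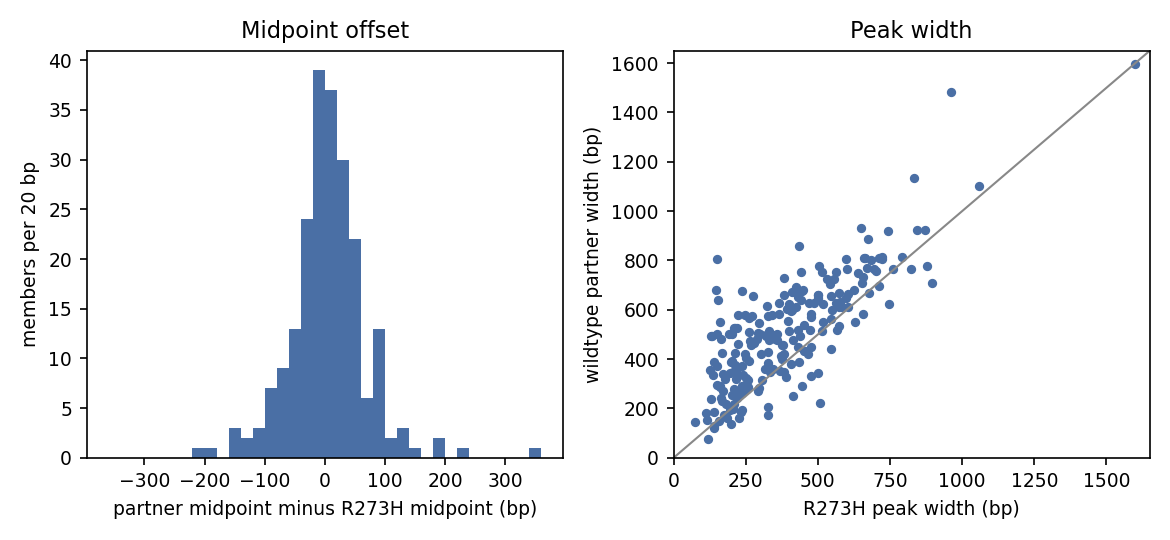
Left, number of shared peaks inside genes by the distance of the partner's midpoint from the R273H midpoint, in bins of 20 bp; right, width of the partner against width of the R273H peak in bp, with the line of equal width. Most offsets are within 50 bp of 0, and 177 of 220 partners are the wider peak.

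The highest R273H score, 3204.32, belonged to a peak of 842 bp in LOC124901431, an uncharacterised gene on chromosome 6 (chr6:150856887-150857728), whose partner scored 3100. Next came CASZ1, the gene of a zinc-finger protein that regulates transcription, with 3100 in both lists (chr1:10744294-10744838). The peak shared by GAS6 and its antisense gene GAS6-AS1 scored 2445.39 and 3100; GAS6 is a secreted ligand of the TAM receptor kinases. All 3 stood at or near the top of both lists.

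Next in the R273H order were the lncRNA gene LINC02099 with 1809.58, LOC124901737 with 1449.27 and CDKN1A with 1426.71. CDKN1A, the gene of the cyclin-dependent kinase inhibitor p21, had the highest partner score of all, 3105.98, and its peak at chr6:36676091-36676811 crossed the start of the gene span, 2263 bp before the nearest start of the window table. Of the 20 highest R273H scores, 4 were in a gene of the p53 target lists described below, beside 22 of all 220 shared peaks inside genes. In 10 of the 20 every gene under the peak was noncoding, beside 73 of the 220.

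The remaining coding genes of the top 20 had varied roles. MYO3B, an unconventional myosin, scored 1292.4 and 2644.16, and GPHN, the scaffold of inhibitory synapses, 1110 and 1922.15. RPS19, a protein of the small ribosomal subunit, scored 1161.48 and 2991.66, and its peak lay over the gene's start. CLSTN2, a calsyntenin, scored 1070.63 and 1547.19. These peaks lay at different depths in their genes: the RPS19 midpoint was 73 bp after a start, that of MYO3B 43778.5 bp and that of CLSTN2 488454 bp.

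SUSD1, a sushi-domain protein, scored 1038.9 and 1506.89. APBB2, which binds the amyloid precursor protein, scored 923.68 and 2079.13, and AEBP2, a cofactor of Polycomb repressive complex, 920.6 and 1837. Other noncoding genes of the top 20, beside those named above, included LINC02006 with 1250.17 and 1443.12 and the pseudogene LRRC37A11P with 1177.64 and 3100. MICB-DT, divergent to the MHC-related gene MICB, had 1173.04 and 2307.58. The rest were the lncRNA genes LOC124902258 with 1048.56 and 2549.37, LOC105376107 with 1002.81 and 2355.93, and LOC124900167 with 960.52 and 2559.78. After the top 20, the highest partner scores were those of SUGCT, DCUN1D3, LINC01483, AKAP6, PRAG1, LOC124900602, CAMK4, LOC112267962 with LOC105377869, RPS27L and TSGA10. They ran from 1664.97 in TSGA10 to 2518.58 in SUGCT. DCUN1D3, which promotes neddylation of cullins, had 826.04 and 2515.67, and AKAP6, an anchor of protein kinase A, 702.21 and 2017.86.

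The lists of genes linked to p53 in general knowledge held 144 genes of the RefSeq table, and 22 of these, 15.3%, had a shared peak inside them. Over all RefSeq genes, 243 of 58961 did, 0.412%. The lists were drawn up with results of these data known, so this is a count and not independent evidence. The number of shared peaks in these genes was also 22, because PHLDA3 had 2 and MIR34AHG and LNCTAM34A have 1 in common. Their median scores were 265 in R273H and 708 in wildtype, against 146 and 373 for the 198 other shared peaks inside genes.

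**Figure D4:**
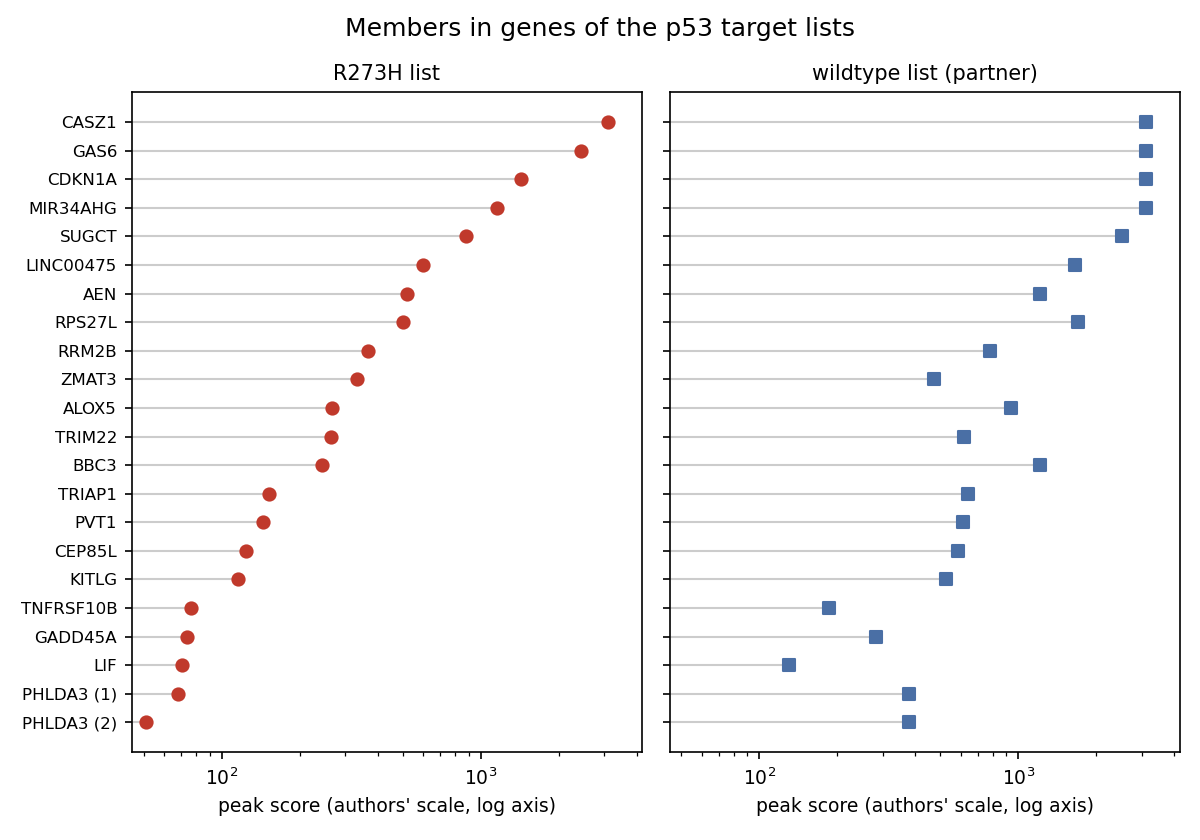
Scores of the 22 shared peaks in genes of the p53 target lists on the authors' scales (log axes), with the R273H list on the left and the best wildtype partner on the right, ordered by R273H score. CASZ1 is highest with 3100 and the second PHLDA3 peak lowest with 50.93; the panels are on separate scales and are not to be compared point by point.

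Here and below, a listed gene has a peak only where a peak overlaps its RefSeq span, and peaks beside a gene are not counted. Outside the stretch left out, 1566 R273H peaks were unshared beside 428 shared, and 1618 wildtype peaks beside 425. The share of all RefSeq genes with a peak of a single list was not counted. Listed genes with a wildtype peak only, or with an R273H peak that was not shared, are therefore not read as losses or gains. Of 20 genes of cell-cycle arrest and feedback, 6 had a shared peak and the other 14 had no peak of either list inside them. After CDKN1A the highest R273H score was that of ZMAT3, an RNA-binding zinc-finger protein, with 334.57 in R273H and 474.25 in wildtype, 828 bp before the nearest start. TRIM22, an interferon-inducible ubiquitin ligase, scored 264.08 and 614.84. CEP85L, a centrosomal protein, scored 124.64 and 587.31, so both stood above ZMAT3 in the wildtype list. The lower end of this list was close to the floor of the R273H peak calls.

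GADD45A, a stress protein induced by DNA damage, scored 73.82 in R273H and 283.2 in wildtype. PHLDA3, an inhibitor of Akt signalling, held 2 R273H peaks of 67.69 and 50.93, which together lay over a single wildtype peak of 377.86. One wildtype interval was thus listed as a pair of short R273H intervals, and the second of them reached only 49 bp into the gene.

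Of 20 apoptosis genes, 4 had a shared peak, BAX and TNFRSF10C had a wildtype peak only, and 14 had none. AEN, an apoptosis-enhancing nuclease, scored 521.33 and 1209.99, with its midpoint 9 bp after a start. BBC3, the gene of the BH3-only protein PUMA, scored 244.61 and 1212.39, 1271 bp after its start. TRIAP1 scored 152.24 and 640.94. The lowest was TNFRSF10B, a death receptor for TRAIL, with 76.23 and 185.55.

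Repair and nucleotide supply gave 2 of 11 genes, DDB2 and PCNA having a wildtype peak only and 7 none. RPS27L, a ribosomal protein paralogue, scored 502.72 and 1698.39 with its midpoint 205 bp after the start, and RRM2B, a p53-inducible subunit of ribonucleotide reductase, 366.82 and 775.93. Of 32 genes of metabolism, membranes and autophagy, 2 had a shared peak. SUGCT, a mitochondrial CoA transferase, scored 876.89 and 2518.58 at 582496 bp from its start, and ALOX5, a lipoxygenase of leukotriene synthesis, 266.81 and 934.42. ACER2, ASTN2 and NINJ1 had R273H peaks that were not shared, SLC12A4 had a wildtype peak only, and 26 had none.

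Secreted factors and signalling gave 4 of 31 genes: CASZ1 and GAS6 at the top, and KITLG and LIF low in the order. KITLG, the ligand of the receptor KIT, scored 115.47 and 526.62, and LIF, an interleukin-related cytokine, 70.46 and 130.51. EPHA2 had an R273H peak that was not shared. Of 30 noncoding genes linked to p53, 4 had a shared peak. LINC00475 scored 600.45 and 1653.6, and PVT1, a lncRNA gene next to MYC, 144.26 and 612.85. LINC-ROR had an R273H peak that was not shared, 4 genes, among them DLEU1, GAS5 and PURPL, had a wildtype peak only, and 21 had none.

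MIR34AHG is the fourth of these with LNCTAM34A. The miR-34a hairpin lay 30038 bp from the shared peak, inside the same host gene, and the peak covered the annotated start of that gene. Its mature RNA is shown, from RefSeq, with the seed (bases 2 to 8) in capitals.
hsa-miR-34a-5p: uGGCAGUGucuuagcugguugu

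In all, 22 shared peaks lay in genes that also hold 25 miRNA hairpins of the table. Of these 25, only 1 was itself under a peak, that of MIR663B inside ANKRD30BL, where the scores were low, 59.7 in R273H and 91.6 in wildtype. A further peak, with 105.34 and 208.56, overlapped the miRNA gene MIR663A inside MIR663AHG; the miRNA table used here has no entry for it. The mature RNA of MIR663B is shown in the same way.
hsa-miR-663b: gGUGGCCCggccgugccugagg

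Genes of colorectal stem cells and Wnt signalling, 32 in number, had no shared peak inside them. NKD1, SMOC2 and ZEB1 had R273H peaks that were not shared, EPHB2, LEF1 and ZNRF3 wildtype peaks only, and 26 none. Over all RefSeq genes the share with a shared peak was 0.412%, so none in a list of 32 is not read as a lack. Among 42 genes of cytoskeleton and adhesion 1 had a shared peak, 2.38%. This was PTPRM, a receptor tyrosine phosphatase of cell contacts, with 98.12 and 234.98. Among 35 genes of transcription and chromatin 1 had a shared peak, 2.86%, which was PRDM1, the gene of the repressor BLIMP1. It scored 146.06 and 705.49, 267 bp before a start.

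Beyond the lists, shared peaks lay in further genes of transcription and signalling, chosen here after their values were seen. ATF3, a stress-induced transcription factor, scored 312.64 in R273H and 923.65 in wildtype. EDN2, the gene of endothelin-2, scored 532.97 and 793.97, and PDGFC, a platelet-derived growth factor, 401.82 and 1263.42. MSI2, a Musashi RNA-binding protein of stem cells, scored 495.12 and 1226.3. All 4 were above the median of the shared peaks in both lists.

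RBPJ, the DNA-binding protein of Notch signalling, scored 111.57 and 710.5, and SMAD2, a mediator of TGF-beta signals, 52.63 and 73.52. BCL2L1, the gene of BCL-XL, held 2 shared peaks 21059 bp apart from end to end, with R273H scores of 191.95 and 143.92. SMARCB1, a core subunit of SWI/SNF, scored 53.22 and 302.61. Of these, only the first BCL2L1 peak was above the median R273H score of 151.

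Most shared peaks lay in protein-coding genes. The counts were 147 with at least 1 coding gene, 66.8% (60.2 to 73.0%), 62 with lncRNA genes but no coding gene, 28.2% (22.3 to 34.6%), and 11 with pseudogenes or other RNA genes only, 5.00% (2.52 to 8.77%). Of the R273H peaks inside genes without a partner, 14.3% (11.3 to 17.9%) were of the last kind, an interval that does not overlap that of the shared peaks, while coding genes made up 63.7% and lncRNA genes 22.0%. Median scores were 159 in R273H and 474 in wildtype in coding genes, and 136 and 309 in lncRNA genes. Scores in both kinds spanned nearly the whole range, from 50.93 to 3100 in coding and from 51.46 to 3204.32 in lncRNA genes in the R273H list.

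The 220 peaks touched 243 genes, 185 of them in a single gene and 34 in 2 overlapping genes. They lay wholly inside the span in 204 cases, and 16 crossed a gene end. The longest gene under each of the 220 peaks, counted once per peak, had a median length of 99388.5 bp. Exons, introns and untranslated regions are not in the gene table and were not assigned.

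For 152 peaks a start of the host gene was in the window table, which holds none on chromosome 8, where 17 of the 68 others lay. The midpoint was a median of 26260 bp from the nearest such start, and 18 of the 152, 11.8% (7.17 to 18.1%), were within 1 kb. The same share was 6.16% (3.69 to 9.57%) for R273H peaks inside genes without a partner and 7.76% (5.67 to 10.3%) for such wildtype peaks. These intervals overlap. Most common was a position 10 to 100 kb downstream, in 65 of 152, 42.8% (34.8 to 51.0%), and 30 lay over 100 kb downstream. The median distance of the unshared peaks was 27707 bp in R273H and 19994 bp in wildtype.

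**Figure D5:**
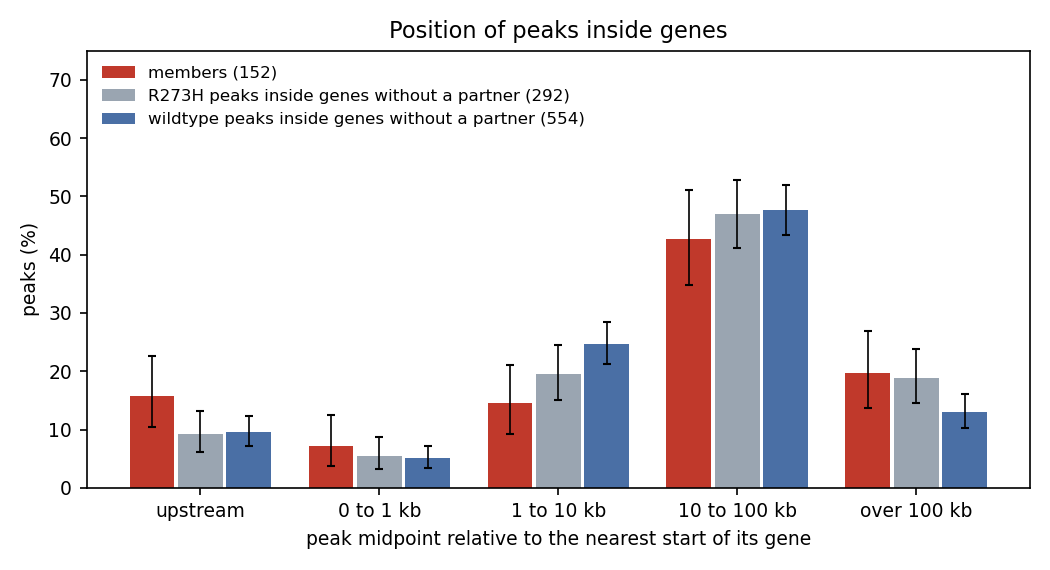
Share of peaks inside genes (%) by the position of the peak midpoint relative to the nearest start of its gene, for the 152 shared peaks with a start, 292 R273H peaks and 554 wildtype peaks without a partner. Bars start at 0 and the error bars are exact 95% binomial intervals; the class from 10 to 100 kb is the tallest in each set, and the intervals of shared and unshared R273H peaks overlap in each class.

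The peaks over starts can be named by the scores of the 17. RPS19, LOC124901737 and the MIR34AHG start had the highest R273H scores, followed by AEN and RPS27L, which were above 500. Some peaks lay over the start of a gene other than the one around them. The peak in TRAF3IP2-AS1, with 125.6 and 404.74, touched the start window of REV3L, the catalytic subunit of a translesion DNA polymerase. The peak in CACNA1C, a calcium channel gene, with 94.12 and 299.38, touched that of DCP1B, an mRNA decapping factor, and the peak in PTP4A1, a phosphatase, with 69.67 and 629.32, that of LOC124901228 printed above.

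The other start peaks were GRSF1, a mitochondrial RNA-binding protein, with 110.31 and 281.05, LOC124904704 with 145.7 and 131.8, LOC105376912 with 80.35 and 265.34, and MIR663AHG with 98.68 and 53.6. APOBEC3H, a cytidine deaminase, was lowest of these in R273H with 63.22, and its partner had 66.81. The median of the 17 was 146 in R273H, close to 152 for the 203 other shared peaks inside genes. In the wildtype list it was 629 against 459.

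Some host genes are copies of each other, chosen here after their values were seen. How reads that fit several copies were placed is not stated in the labels, so the values of copies may not be separate measurements. SRGAP2, a regulator of neuronal migration, and its partial duplicates SRGAP2B and SRGAP2C had shared peaks at nearly the same depth, 96707.5, 97029.5 and 96729.5 bp after their starts. SRGAP2B and SRGAP2C had the same R273H score of 246.52 and width of 500 bp, with partners of 635.96 and 556.4. The SRGAP2 peak scored 175.41 and 506.3.

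ANKRD18A and ANKRD18B had peaks 36720.5 and 36170.5 bp after their starts, with R273H scores of 61.34 and 182.22. LRRC37A2 and LRRC37A11P held 3 peaks with R273H scores from 551.49 to 1177.64. The listed span of LRRC37A2 is 676337 bp long, and its 2 peaks also overlapped other genes, the pseudogene NSFP1 (631.79) and NSF (551.49). Whether these peaks lie in sequence copied between LRRC37A genes was not checked. Pseudogenes of the ribosomal protein gene RPL23A held 4 peaks, from 51.25 to 311.57 in R273H. Of 511 tRNA genes, 5 had a shared peak, from 201.93 to 242.93 in R273H and from 237.48 to 661.14 in wildtype. The lowest R273H score of these was that of TRQ-TTG8-1, which RefSeq types as a pseudogene. MIR663AHG and ANKRD30BL, with the miRNA genes they hold, had 5 peaks, all low, from 59.7 to 105.34 in R273H.

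Chromosome 1 held 24 of the shared peaks inside genes, beside 158 R273H peaks and 5535 genes in all, and chromosome 6 held 23, beside 101 and 3324. Chromosome 8 held 17, beside 81 R273H peaks and 2415 genes, and Y none, beside 12 and 542. Within 3 Mb of a chromosome end lay 17, 7.73%, close to 8.37% of all R273H peaks. The share was 13.5% for shared peaks between genes, 18.7% for R273H peaks inside genes without a partner and 3.35% for those between genes without one. The 17 had median scores of 94.1 and 146, and the 203 elsewhere 159 and 476. What part position near a chromosome end had in the scores was not tested.

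Ranked within its own list, the typical shared peak stood at the 88.3 percentile of R273H scores and its partner at the 89.8 percentile of wildtype scores. Lists of different length are ranked here, so the 2 percentiles are given side by side and no change is read from them. The pairs farthest apart on 1 side were IGF2BP2 at 71.5 and 9.45, MIR663AHG at 80.0 and 18.3, PKD1 at 92.3 and 36.3, REXO1L6P at 70.6 and 26.2, and ESPNP at 45.8 and 8.09 in R273H and wildtype. PKD1, the gene of polycystin-1, REXO1L6P and ESPNP belong to families with near copies in the genome.

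On the other side were the second PHLDA3 peak at 5.25 and 88.4, VTI1A at 7.15 and 85.3, LOC107986441 at 9.41 and 85.7, ATL1 at 14.99 and 90.3, and KRT18P55 at 3.74 and 78.6. PHLDA3 and LOC107986441 are both cases in which 2 R273H peaks share 1 partner, as in LINC02006 and SNAP25-AS1. The low percentile of these 2 belongs to a fragment of the site: the other R273H peak of LOC107986441 scored 78.52 and that of PHLDA3 67.69. In LINC02006 the 2 R273H peaks scored 1250.17 and 54.02 under 1 partner of 1443.12.

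The rule's edges can be read from the peaks beside them. The least overlap with a partner was 64 bp, in CGA, the gene of the glycoprotein hormone alpha subunit, with scores of 88.86 and 106.52, followed by 73 bp in ANKRD30BL. Just outside, a second PKD1 peak missed a wildtype peak by 10 bp and a peak in LOC107986487 by 17 bp. The least overlap with a gene was 37 bp, in EIF2AK3-AS1, and the shared peaks nearest to a gene without touching it were 65 bp from PRAM1 and 67 bp from MIR663AHG.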

How the data were processed

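The files were 2 peak lists, 1 per genotype, with each peak's position and score. The score is the authors' own as deposited, and no label or header names its scale. Per the submitters' processing notes the tools were Bowtie 1.2.2, MACS and HOMER and the build was hg38; what each tool did, whether input was used and whether samples were pooled are not stated there or in the labels. The sample descriptions name the lists inconsistently, and the ChIP sample title that a list's name matches decided its genotype. Peak numbers ran from 193 to 2200 and from 228 to 2286, and peaks with lower numbers were not analysed here.

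Peaks were intersected at 1 bp or more. Genes were 58961 spans of RefSeq GRCh38.p14, the assembly hg38 names. Another 718 genes of unlocalised or alternate sequences stand there under a chromosome number; they were left out, and with them the shared peaks would be 226 instead of 220. Where 2 wildtype peaks overlapped a peak, the higher score was taken. Percentiles are ranks within a whole list. No test between genotypes was run, since each has 1 ChIP library, and read depth, which would set the precision of each score, is unknown.

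The named peaks were the 20 with the highest R273H score, the 10 of the others with the highest partner score, those in listed genes, in genes with several, over start windows (up to 15), farthest apart in percentile (5 each way) and nearest the rule's edges. Members, lists and tests were chosen with earlier results of these data known. Overlap and motif counting were tested on simulated data. Alternatives were other overlap rules, score minimums and gene sets. Python 3.11.15, pandas 2.3.3, NumPy 2.4.6, SciPy 1.17.1 and matplotlib 3.10.9 were used.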

Additional observations from a re-analysis of the deposited data

How the results depend on the processing

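In all, 7 values were recomputed under 10 alternatives, and 61 of the 70 recomputed values stayed within the limits set for a move. One alternative, counting genes of other sequences, was chosen after seeing the data. With a score of at least 100 in both lists, 140 shared peaks inside genes remained, 42 of them in noncoding genes only, with median scores of 247 in R273H and 731 in the best wildtype partner, against 151 and 463 for all 220. At or above each list's median score, the medians were 176 and 587. With protein-coding genes only, 10 peaks lay over start windows and by construction 0 were in noncoding genes only. Without LOC genes, 41 were in noncoding genes only. Under the other alternatives the number of shared peaks ran from 147 to 226, and under all 10 the number in p53 target genes ran from 17 to 22. No replicate could be left out, and no paired analysis was possible because each genotype has 1 ChIP library. Depth is unknown, so a site missing from a list may be below that list's threshold.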
